A study of Mus musculus with 70 samples.

Results

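The genes described here are 9 members of the poly(ADP-ribose) polymerase (PARP) family and Dtx3l, the ubiquitin ligase that partners with PARP9. They were chosen by symbol, as Parp9, Dtx3l, Parp14, Parp10, Parp11, Parp12, Zc3hav1 (which encodes PARP13, also called ZAP) and Parp3, with Parp1 and Parp2 for comparison. All 10 were among the 35197 genes of the deposited table, and all 10 passed the filter on low counts that kept 16147 genes for testing. RNA was sequenced from 8 established mouse cancer lines in 70 libraries. By the labels, B16.1 and YUMMER1.7 come from melanoma, Renca from renal and LLC from lung cancer. Pancreatic cancer is represented by Panc02.3 and KPC.2, and colorectal cancer by MC38.7 and CT26.2. CT26.2 and Renca are of BALB/c origin and the other 6 lines of C57BL/6 origin. Each line was kept for 48 h with interferon beta (IFNb, 1000 activity units per mL) or with interferon gamma (IFNg, 100 ng per mL). Unstimulated libraries (NS) had neither, with no time recorded for them here. All were in DMEM with serum. Of the 24 groups of line and treatment, 22 held 3 libraries; the 2 that held 2 were unstimulated Renca and IFNg-treated LLC. Nothing in the labels says that replicates were cultured separately. The p-values therefore reflect how far the libraries of a group lie apart, and this spread may be technical.

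PARP enzymes take ADP-ribose from NAD and attach it to proteins or nucleic acids. PARP1 and PARP2 build chains of it at DNA breaks, and PARP3 also acts in break repair. PARP10, PARP11, PARP12 and PARP14 attach single units and are known as interferon-inducible, PARP9 works in a complex with DTX3L, and ZAP binds viral RNA without enzyme activity. IFNb and IFNg act through different receptors. Genes that respond to IFNb often carry the interferon-stimulated response element (ISRE), and genes that respond to IFNg the gamma-activated site (GAS).

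The positions of the genes bear on how they are compared, and are given on GRCm38. Parp9 (chr16:35938470-35972605, plus strand) and Dtx3l (chr16:35926511-35939151, minus strand) lie head to head and overlap by 682 bases at their starts. Parp14 (chr16:35832874-35871544, minus strand) is the next annotated protein-coding gene, 54967 bases from Dtx3l. Zc3hav1 (chr6:38305286-38354603), Parp12 (chr6:39086410-39118349) and Parp11 (chr6:127446840-127494261) share a chromosome, with Zc3hav1 and Parp12 on its minus strand. Parp10 (chr15:76231174-76243441) overlaps the same-strand gene Plec by 1401 bases, and Parp3 (chr9:106470322-106476949) overlaps the opposite-strand gene Rrp9 by 987 bases. Parp9 also overlaps an antisense gene, Gm15564, by 5854 bases. Whether strand was used in counting is not given in the sources used here, so reads from these overlaps cannot be assigned with certainty.

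Promoter windows from RefSeq (GRCm38.p6), 250 bases before to 50 after a start, were found for 7 of the 10 genes, with 8 windows in all. Those not found were Parp9, Parp14 and Parp10, which were not searched. They were searched on both strands for an ISRE, taken as 2 copies of GAAA with any 2 bases between them, and a GAS, taken as TTC and GAA with any 3 bases between them. Of all 32851 RefSeq promoter windows, 3.44% held the ISRE, 8.3% the GAS and 0.454% both. Among the 8 windows only the first of the 2 Parp11 windows held either, and it held both. The ISRE, read on the minus strand, lay at bases -44 to -35 from the start and overlapped the GAS at -37 to -29. These letters describe the window and are no evidence of binding. The Parp11 window (chr6:127446590-127446889, plus strand) is shown for this pair, in capitals, and the Dtx3l window (chr16:35938978-35939277, minus strand) as the only window found for the Parp9 and Dtx3l pair. It covers the annotated start of Dtx3l, not that of Parp9, and held neither.
Parp11: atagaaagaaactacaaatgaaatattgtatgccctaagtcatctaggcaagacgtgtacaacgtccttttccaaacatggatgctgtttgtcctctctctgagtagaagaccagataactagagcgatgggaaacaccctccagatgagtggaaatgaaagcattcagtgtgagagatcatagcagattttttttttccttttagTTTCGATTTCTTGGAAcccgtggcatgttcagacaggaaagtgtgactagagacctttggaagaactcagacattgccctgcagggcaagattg
Dtx3l: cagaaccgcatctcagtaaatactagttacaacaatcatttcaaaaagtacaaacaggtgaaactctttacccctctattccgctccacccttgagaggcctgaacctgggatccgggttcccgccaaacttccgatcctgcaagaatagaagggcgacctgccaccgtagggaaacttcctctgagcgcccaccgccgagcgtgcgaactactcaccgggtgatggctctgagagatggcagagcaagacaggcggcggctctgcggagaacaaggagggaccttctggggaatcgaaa

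Library totals ran from 668355 to 28550816 estimated counts, with a median of 8644887. Levels are CPM, the gene's share of its library's scaled total count. Melanocyte markers summed to 9120-20383 CPM in B16.1 but to 15-25.8 CPM in YUMMER1.7, most of it Mitf, with 1 of the 7 markers at 0. Epithelial markers summed to 1.12-2.15 CPM in MC38.7 and 26.8-37.4 CPM in CT26.2, both labelled colorectal, against 5315-9719 CPM in KPC.2. Leukocyte markers summed to at most 11.4 CPM and the leukocyte gene Ptprc had at most 5 counts in a library. The mitochondrially encoded share of counts lay between 1.39% and 4.89%. Irf1, Isg15, Ifit1 and Gbp2, textbook interferon targets used as a check, rose with IFNg in all 8 lines. With IFNb in YUMMER1.7 none of the 4 rose: Gbp2 fell by 0.51 (log2, SE 0.08, adjusted p = 1.0e-05) and Ifit1 by 0.36 (SE 0.09, adjusted p = 0.018), while Isg15 changed by -0.20 ± 0.09 (adjusted p = 0.42) and Irf1 by -0.06 ± 0.06 (adjusted p = 0.82). In Renca with IFNb, Irf1 changed by 0.13 ± 0.08 (adjusted p = 0.38).

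Without cytokine the levels of the PARP genes already differed widely between lines. Parp9 CPM was lowest in B16.1 (10.7 ± 2.50, SD, n = 3) and LLC (12.0 ± 0.458, n = 3), whose libraries overlapped. It was higher, in this order, in MC38.7 (18.0 ± 2.13), KPC.2 (28.9 ± 0.409), Panc02.3 (34.8 ± 3.05), CT26.2 (65.0 ± 4.14), Renca (103 ± 5.07, n = 2) and YUMMER1.7 (159 ± 16.2), and no further neighbours in that order overlapped. Parp14 spanned a wider range, from 2.66 ± 0.323 CPM in B16.1 through 3.35 ± 0.457 in MC38.7, 5.36 ± 0.704 in Panc02.3, 5.42 ± 0.331 in LLC, 10.3 ± 1.10 in KPC.2, 55.3 ± 2.84 in Renca and 66.7 ± 13.1 in CT26.2 to 212 ± 29.1 in YUMMER1.7. In that order Panc02.3 overlapped LLC and Renca overlapped CT26.2. The highest line was 79.6-fold above the lowest for Parp14, 14.9-fold for Parp9, 12.3-fold for Dtx3l and 10.8-fold for Parp10, and for each of these 4 the ends were B16.1 and YUMMER1.7. In bulk RNA, a smaller number of expressing cells and less RNA per cell cannot be told apart.

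All 10 genes differed between the 8 unstimulated lines (7 df F test), as did 96.5% of all genes tested, so this count says little about these genes. Against the mean of the other 7 lines, unstimulated YUMMER1.7 was higher for 8 of the 10, where 36.4% of all genes were higher, and the median over the 10 was 2.31 (log2) against 0.01 over all genes. Its Parp1 was lower and its Parp2 did not pass the test. CT26.2 was also higher for 8 of the 10, where 36.8% of all genes were, with a median of 1.18 over the 10. In B16.1, 6 of the 10 were lower, where 31.5% of all genes were: Parp9, Dtx3l, Parp14, Parp10, Parp3 and Parp2. Higher in B16.1 were Parp1 by 1.06, Parp11 by 0.85 and Parp12 by 1.20 (log2), where 36% of all genes were. For Parp11 the other lines include Renca, and for Parp12 Panc02.3, with counts at or near 0. In KPC.2, 8 of the 10 were lower, where 28.5% of all genes were. Unstimulated Isg15, one of the check genes, was 644 CPM in YUMMER1.7, 303 in CT26.2, 172 in Renca and 35.3 in Panc02.3. The remaining 4 lines held 0.978 to 4.31 CPM.

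**Figure D1:**
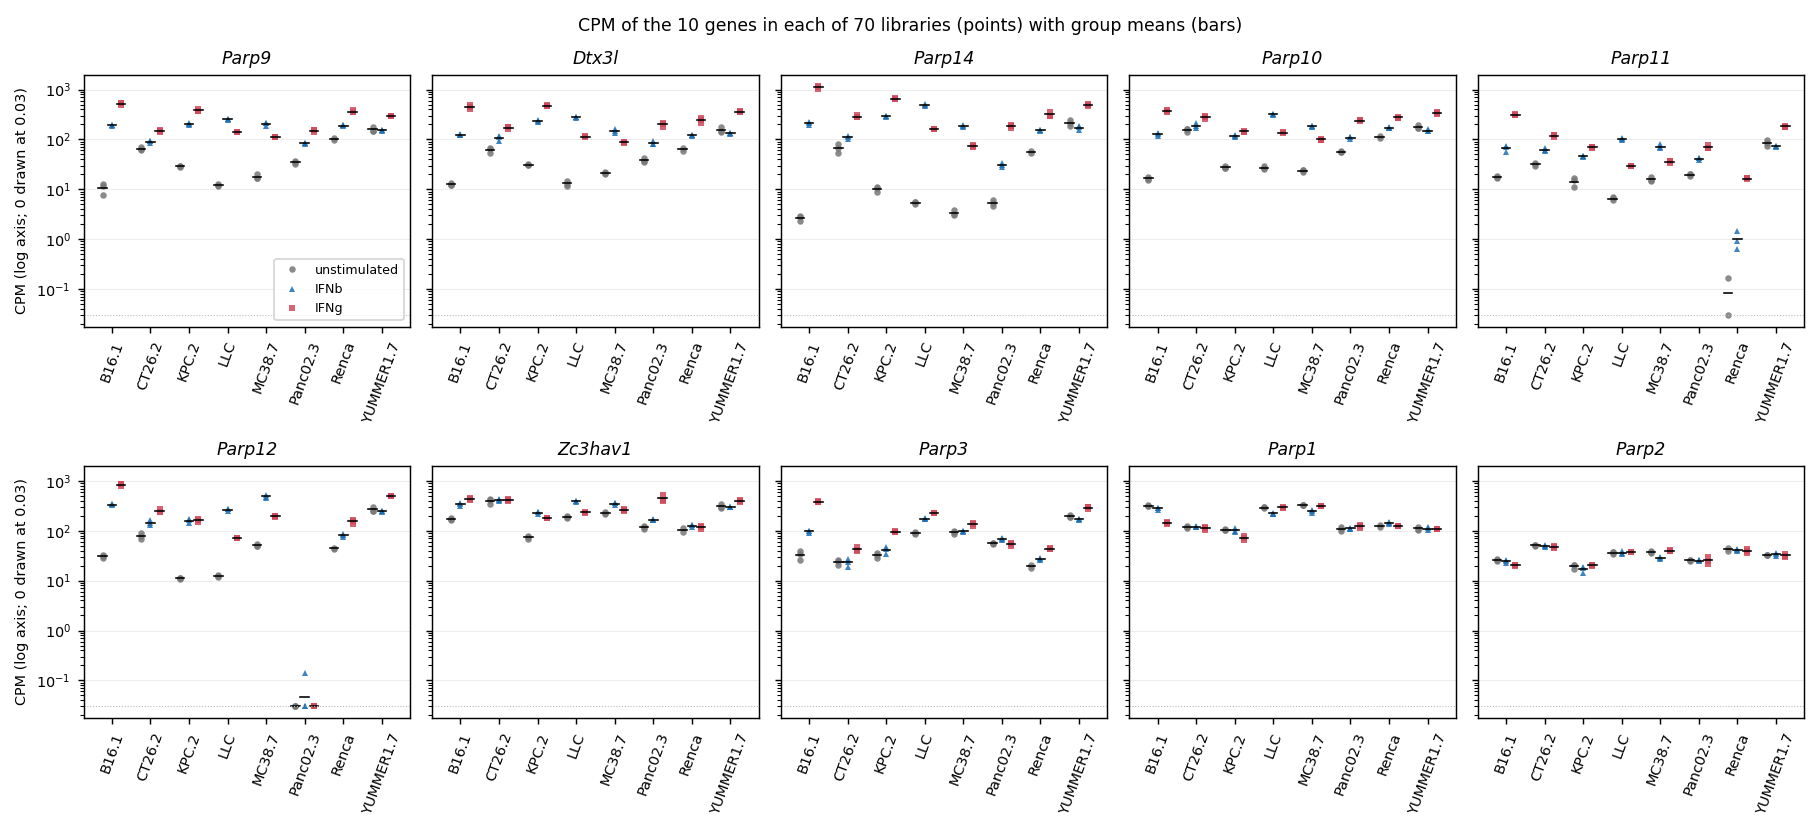
Level of each of the 10 genes (CPM, log axis, 0 drawn at 0.03) in every library, by cell line on the horizontal axis; points are libraries, colour and shape give the treatment, and short bars are group means. Parp9, Dtx3l, Parp14 and Parp10 start lowest in B16.1 and highest in YUMMER1.7, Parp12 lies at or near 0 in all Panc02.3 libraries, and Parp11 is far lower in Renca than in the other lines.

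With IFNb, 8 of the 10 genes rose on the mean of the 8 lines, where 13.0% of all genes tested rose, and the 2 comparators Parp1 and Parp2 fell, where 17.3% fell. A gene is said to have risen or fallen where its adjusted p was below 0.05. A rise of at least 2-fold was found for 6 of the 10 (Parp9, Dtx3l, Parp14, Parp10, Parp11 and Parp12) and for 1.44% of all genes. The median over the 10 was 1.75 on the log2 scale, against -0.02 over all genes. With IFNg, 7 rose on the mean, where 18.3% of all genes rose, and Parp1 fell, where 23.7% fell. At least 2-fold rises were found for 6 (Parp9, Dtx3l, Parp14, Parp10, Parp11 and Parp3), as for 2.47% of all genes, and the median over the 10 was 2.12 against -0.04. Parp12 had 0 or 1 counts in each Panc02.3 library, so neither mean over 8 lines is a fair measure of it. Means over the other 7 lines were added after the data were seen. On these, 6 of the 10 rose at least 2-fold with IFNb (1.52% of all genes) and 7 with IFNg (2.69%), Parp12 among them both times. The standard error of a mean over lines reflects the spread between libraries of a group, not that between lines.

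By line, the number of the 10 genes that rose with IFNb was 8 in B16.1 (14.6% of all genes rose there), 6 in CT26.2 (1.97%), 8 in KPC.2 (2.52%), 8 in LLC (17.6%), 7 in MC38.7 (13.8%), 7 in Panc02.3 (3.33%), 9 in Renca (7.10%) and 0 in YUMMER1.7 (0.384%). In YUMMER1.7 2 of the 10 fell, Parp14 and Parp10, where 0.972% of all genes fell. With IFNg the count was 8 in B16.1 (27.6%), 7 in CT26.2 (4.97%), 8 in KPC.2 (13.8%), 8 in LLC (6.65%), 7 in MC38.7 (3.89%), 7 in Panc02.3 (23.2%), 7 in Renca (6.04%) and 8 in YUMMER1.7 (9.79%). With IFNb the 9 in Renca included Parp1, and with IFNg the 7 in Panc02.3 did.

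**Figure D2:**
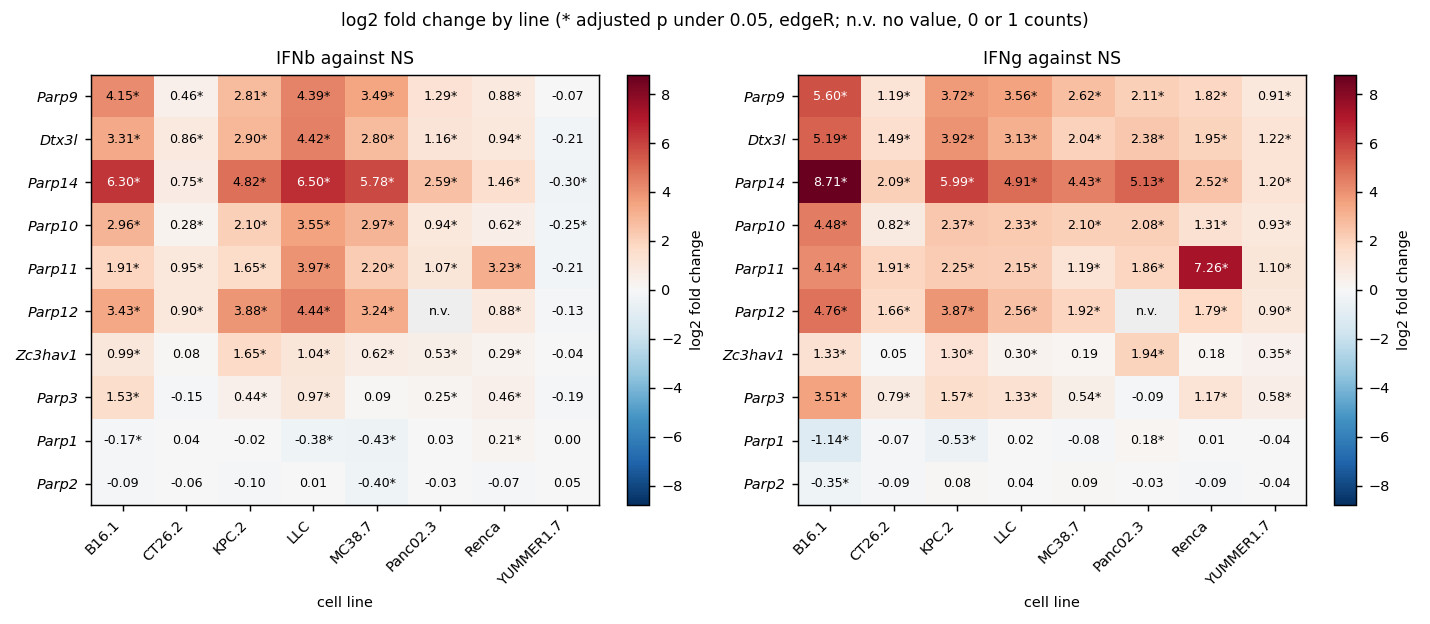
log2 fold change against unstimulated cells of the same line for each gene (rows) and line (columns), for IFNb on the left and IFNg on the right; colour gives size and sign, and an asterisk an adjusted p under 0.05. Parp14 has the strongest colour in most columns, Parp11 in Renca stands out, the YUMMER1.7 column is near 0 with IFNb, and the Parp1 and Parp2 rows are pale apart from Parp1 in B16.1 with IFNg.

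Parp14, which encodes a mono-ADP-ribosyltransferase with macrodomains that also read the mark, had the greatest mean rise of the set with each cytokine. In unstimulated B16.1 its 3 libraries held 2.87, 2.83 and 2.29 CPM, with IFNb 223, 213 and 193 CPM, and with IFNg 1178, 1120.3 and 1034 CPM. These 3 ranges were far apart. The rise in B16.1 was 6.30 ± 0.14 with IFNb (log2 fold change, SE, adjusted p = 3.6e-42) and 8.71 ± 0.13 with IFNg (adjusted p = 6.1e-51). In LLC the order of the cytokines was the other way round: 5.57, 5.04 and 5.65 CPM unstimulated, 505, 491 and 470.2 with IFNb and 162 and 163 with IFNg. In YUMMER1.7 the unstimulated libraries held 241, 212 and 183 CPM and the IFNb libraries 178, 183 and 156, so the 2 groups met at 183 CPM. The change of -0.30 ± 0.08 passed the test (adjusted p = 0.043) but did not without any 1 of 5 of these 6 libraries, the adjusted p then lying between 0.058 and 0.43. With IFNg YUMMER1.7 reached 505, 487 and 468 CPM, all above its unstimulated libraries, a rise of 1.20 ± 0.08. Panc02.3 rose from 5.23, 6.12 and 4.73 CPM to only 34.1, 31.4 and 28.6 with IFNb but to 167, 198 and 190.0 with IFNg. Over the 8 lines the mean rise of Parp14 was 3.49 ± 0.04 with IFNb (adjusted p = 1.6e-56), which ranked 63 from the top among 16147 genes, and 4.37 ± 0.04 with IFNg (adjusted p = 9.1e-63), which ranked 66.

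Parp9 and Dtx3l, whose products form one complex that modifies ubiquitin and histones, moved by similar amounts. Parp9 rose by 2.18 ± 0.03 with IFNb and 2.69 ± 0.03 with IFNg as a mean over lines (adjusted p = 1.1e-55 and 3.6e-61). Dtx3l rose by 2.02 ± 0.03 and 2.67 ± 0.03 (adjusted p = 4.4e-49 and 6.1e-56). Each rose in 7 of 8 lines with IFNb, YUMMER1.7 being the exception, and in 8 of 8 with IFNg. In LLC, Parp9 held 11.9, 12.5 and 11.6 CPM unstimulated, 255, 248 and 254 with IFNb, and 143 and 141 with IFNg. The same LLC libraries held 14.5, 11.9 and 12.9, then 286, 277 and 273, then 113 and 116 CPM of Dtx3l. Both genes thus stood highest with IFNb in LLC, with no overlap between its treatments. In CT26.2 the changes were small: Parp9 held 63.7, 69.7 and 61.8 CPM unstimulated and 91.6, 84.2 and 93.1 with IFNb, a rise of 0.46 ± 0.08 (adjusted p = 5.3e-05). CT26.2 Dtx3l rose by 0.86 ± 0.10 with IFNb, and the 2 genes rose by 1.19 ± 0.08 and 1.49 ± 0.09 with IFNg. In YUMMER1.7 Parp9 held 178, 149 and 150.2 CPM unstimulated, 146, 157 and 151 with IFNb and 296, 301 and 302 with IFNg. Only its IFNg libraries stood apart. In YUMMER1.7 the change with IFNb was -0.07 ± 0.06 for Parp9 (adjusted p = 0.80) and -0.21 ± 0.08 for Dtx3l (adjusted p = 0.26), although its 3 IFNb libraries of Dtx3l all lay below the unstimulated ones.

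The ratio of Dtx3l to Parp9 CPM within a library changed little with IFNb in LLC, where both genes rose by over 4 on the log2 scale. In LLC its mean log2 was 0.12 ± 0.18 unstimulated, 0.14 ± 0.03 with IFNb and -0.32 ± 0.04 with IFNg (SD, n = 2 with IFNg). Over the 24 groups its mean log2 ran from -0.70 (unstimulated Renca, SD 0.22, n = 2) to 0.41 (Panc02.3 with IFNg, SD 0.12, n = 3). Renca kept a low ratio in all 3 treatments, -0.70, -0.65 and -0.58. In B16.1 the ratio was 0.25 ± 0.34 unstimulated, -0.62 ± 0.05 with IFNb and -0.19 ± 0.05 with IFNg, and in MC38.7 0.26 ± 0.10, -0.45 ± 0.08 and -0.33 ± 0.06 (SD, n = 3 each). In KPC.2 and Panc02.3 the highest value was with IFNg. The ratio of Parp14 to Parp9 moved far more: in Panc02.3 it was -2.70 ± 0.08 unstimulated, -1.43 ± 0.16 with IFNb and 0.30 ± 0.08 with IFNg on the log2 scale, and in YUMMER1.7 0.41 ± 0.11, 0.18 ± 0.12 and 0.70 ± 0.07. These ratios compare CPM between genes of different length, so their changes, not their levels, are of use, and they were not tested.

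**Figure D3:**
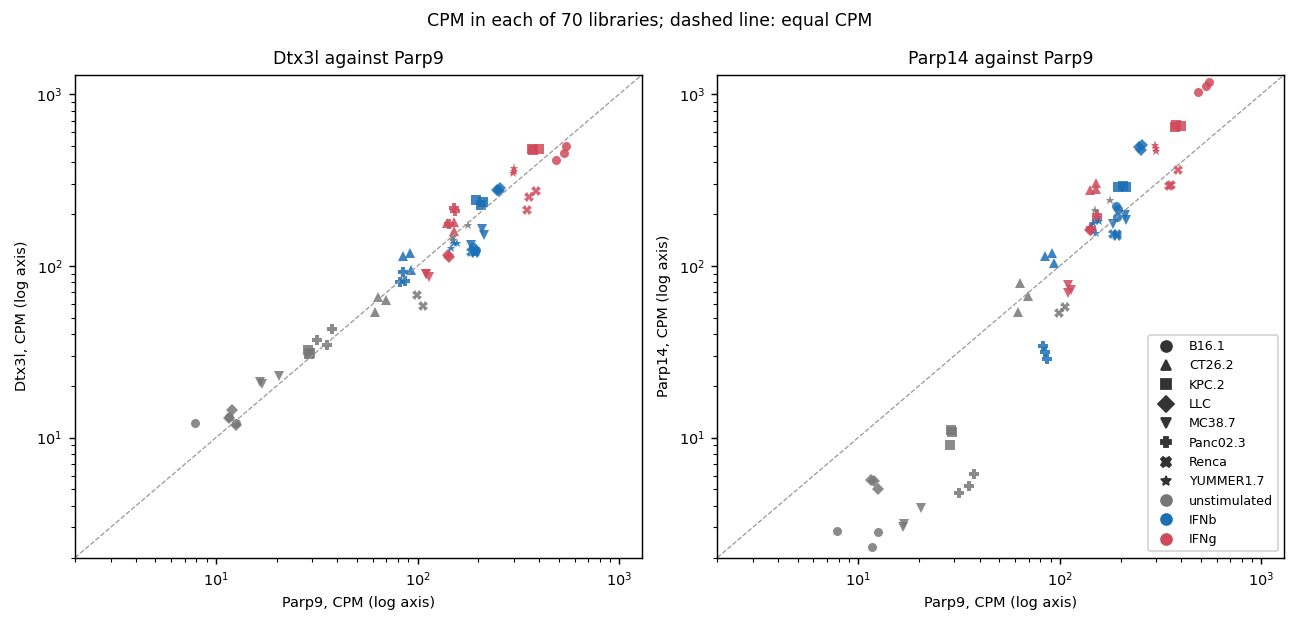
Dtx3l (left) and Parp14 (right) against Parp9 in each library (CPM, log axes); marker shape gives the line, colour the treatment, and the dashed line marks equal CPM. Dtx3l follows Parp9 near the dashed line at all levels, whereas Parp14 lies below it in most unstimulated libraries and at or above it in most libraries with IFNg.

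Parp10, a mono-ADP-ribosyltransferase, rose by 1.65 ± 0.02 with IFNb (adjusted p = 7.6e-52) and 2.05 ± 0.02 with IFNg (adjusted p = 1.4e-57) on the mean. It rose in 7 lines with IFNb and in 8 with IFNg. LLC with IFNb reached 313, 326 and 326 CPM from 25.9, 26.9 and 29.2, and B16.1 with IFNg 353, 366 and 384 from 17.9, 16 and 15.6. The smallest rise with IFNb was in CT26.2, from 164, 143 and 160.2 to 172, 216 and 182 CPM, a change of 0.28 ± 0.06 (adjusted p = 0.0046). Without the second IFNb library it was 0.17 (adjusted p = 0.20), and without the second unstimulated library 0.23 (adjusted p = 0.068). In YUMMER1.7 Parp10 fell from 194, 172 and 168 to 159, 146 and 145 CPM with IFNb, a change of -0.25 ± 0.06 (adjusted p = 0.013), and rose to 321, 355 and 337 with IFNg. Its groups there did not overlap, but the fall did not pass the test without the first unstimulated library (-0.18, adjusted p = 0.23) or without the second (-0.23, adjusted p = 0.11) or the third IFNb library (-0.23, adjusted p = 0.12).

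Parp12, whose product has zinc fingers that bind RNA, was the one gene of the set with no usable level in a line. All 9 Panc02.3 libraries held 0 counts, apart from 1 count in 1 library with IFNb. The limit that 3 counts set over a group was 0.113 CPM unstimulated, 0.121 with IFNb and 0.268 with IFNg. In the same libraries the nearest protein-coding neighbour on one side, Tbxas1, held 38 counts in all (mean 0.550 CPM). It was low in every line, with line means from 0.138 CPM in Renca to 0.959 in CT26.2, lines that did hold Parp12. The nearest on the other side, Kdm7a, was at 55.6-98.3 CPM in Panc02.3, and Hipk2, beyond Tbxas1, at 55.9-162 CPM. In KPC.2, the other pancreatic line, Parp12 rose from 10.6, 11.2 and 11.5 CPM to 162, 169 and 145 with IFNb and 151, 169 and 164 with IFNg. Those 2 stimulated groups overlapped. Over the 7 lines other than Panc02.3, a mean chosen after its values were seen, Parp12 rose by 2.37 ± 0.03 with IFNb (adjusted p = 1.9e-50) and 2.49 ± 0.03 with IFNg (adjusted p = 6.2e-52). With Panc02.3 in the mean the fitted values were 2.33 and 2.18, and the second did not pass the test (adjusted p = 1 with edgeR, which had 0 counts in both groups of that line). The first rested on that 1 count, since without the library that held it the adjusted p was 1. MC38.7 with IFNb reached 474, 532 and 452 CPM, against 197, 192 and 198 with IFNg and 54.4, 49.9 and 50.4 unstimulated. B16.1 had the highest level with IFNg, at 874, 849 and 800.5 CPM.

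Parp11, a mono-ADP-ribosyltransferase of the nuclear envelope, was near 0 in unstimulated Renca and came up with cytokine. Unstimulated Renca held 2 counts over 2 libraries (0.165 and 0 CPM). With IFNb it held 37 counts over 3 libraries (0.640, 1.49 and 0.908 CPM), and with IFNg 706 counts (16.8, 16.6 and 15.8 CPM). The 3 groups did not overlap. From the counts, the ratio to unstimulated cells was 10.5 (exact 95% interval 2.70-89.7) with IFNb and 174 (48.1-1442) with IFNg, and IFNg stood 16.7-fold (12.0-23.8) above IFNb. These intervals cover counting error only. With IFNg, Renca stayed below every other line with IFNg, of which LLC with 29.0 and 29.1 CPM was the next. CT26.2, the other BALB/c line, held 32.5, 33.5 and 29.7 CPM unstimulated. Of the annotated protein-coding genes around Parp11, the nearest at lower coordinates, 294647 bases away, was Ccnd2 (a D-type cyclin, named after its values were seen). It held 3 counts over all 8 Renca libraries, against 242-819 CPM as line means elsewhere. Tigar, the gene after Ccnd2, was at 50.8-55.4 CPM in Renca. The nearest on the other side, Cracr2a, is closer, at 67077 bases. Cracr2a held 4 counts in Renca but was low elsewhere too, with line means from 0.0951 CPM in LLC to 3.16 in B16.1. Whether the locus has a part in the low Parp11 level was not tested.

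In the other 7 lines Parp11 rose by 1.65 ± 0.04 with IFNb (adjusted p = 2.3e-42) and 2.08 ± 0.04 with IFNg (adjusted p = 4.8e-49), while the means over all 8 lines were 1.85 and 2.73. Among these 7, LLC with IFNb stood out, at 103, 98.5 and 106 CPM from 6.88, 6.56 and 6.15, a rise of 3.97 ± 0.09. With IFNg the largest rise among them was in B16.1, to 318, 308 and 304 CPM from 16.7, 17.4 and 18.6. YUMMER1.7 held 96.2, 86.8 and 72.5 CPM unstimulated, overlapped that with IFNb at 72.2, 74.5 and 73.0, and reached 179, 180.2 and 187 with IFNg. Of the 7 genes with a promoter window, Parp11 is the one whose window, printed above, held an ISRE overlapping a GAS. It rose in 7 lines with IFNb, Renca included, and in 8 with IFNg. Dtx3l, whose window held neither motif, also rose in 7 lines with IFNb and in 8 with IFNg. Whether the motifs have a part in these rises was not tested.

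Zc3hav1, which encodes the antiviral RNA-binding protein ZAP, changed less from a higher level. Its mean rise was 0.65 ± 0.03 with IFNb (adjusted p = 2.5e-29) and 0.71 ± 0.03 with IFNg (adjusted p = 1.8e-31). It rose in 6 lines with IFNb and in 5 with IFNg. CT26.2 held 425, 414 and 349 CPM unstimulated, 439.9, 419.9 and 389.6 with IFNb and 387, 413 and 426 with IFNg, and these groups overlapped. KPC.2 rose from 69.2, 74.6 and 80.0 CPM to 241, 236 and 212 with IFNb and 183 in each of 3 libraries with IFNg. In Panc02.3 IFNg gave the higher level, from 119, 122 and 108 to 167, 172 and 163 with IFNb and 399.7, 522 and 419.8 with IFNg, a rise of 1.94 ± 0.07 with IFNg. In Renca Zc3hav1 rose with IFNb by 0.29 ± 0.08 (adjusted p = 0.0084) and changed with IFNg by 0.18 ± 0.08 (adjusted p = 0.17). Both rest on its 2 unstimulated libraries, of 113 and 92.8 CPM: without the second the change with IFNb was 0.17 (adjusted p = 0.34), and without the first that with IFNg was 0.33 (adjusted p = 0.045). The rise with IFNg in LLC, 0.30 ± 0.08, did not pass without the second of its IFNg libraries (adjusted p = 0.061). Of the list of ZAP cofactors and its relative, Trim25, Khnyn and Zc3hav1l, 1 of 3 rose on the mean with each cytokine, Khnyn fell with IFNb and Zc3hav1l with IFNg. Over all genes tested, 13.0% rose and 17.3% fell with IFNb and 18.3% rose and 23.7% fell with IFNg; a list of 3 genes allows no reading against these. The list medians were 0.02 and -0.05, against -0.02 and -0.04 over all genes. The gene that rose was Trim25, a ubiquitin ligase needed for ZAP activity, by 1.41 ± 0.03 with IFNb and 1.05 ± 0.03 with IFNg, in 7 and 8 lines.

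Parp3, which acts in DNA break repair, rose more with IFNg than with IFNb. The mean rise was 0.43 ± 0.03 with IFNb (adjusted p = 2.1e-16) and 1.18 ± 0.03 with IFNg (adjusted p = 5.1e-39), in 5 and 7 lines. Of these 5, Panc02.3 (0.25 ± 0.08, adjusted p = 0.045) did not pass without any 1 of its 6 libraries, KPC.2 not without the second IFNb library (0.32, adjusted p = 0.30) or the third unstimulated library (0.38, adjusted p = 0.058), and Renca not without its second unstimulated library (0.38, adjusted p = 0.053). B16.1 went from 26, 34.4 and 38.9 CPM to 91.5, 100.3 and 98.4 with IFNb and 380.3, 391 and 372 with IFNg. Its 3 groups did not overlap, and the rise with IFNg was 3.51 ± 0.08. LLC, in which most of the set was higher with IFNb, held 84.1, 92.8 and 89.9 CPM of Parp3 unstimulated, 175, 169.5 and 176 with IFNb and 225 and 224 with IFNg. In MC38.7 the IFNb libraries (100.3, 95.9 and 101 CPM) overlapped the unstimulated ones in part (99.2, 93.6 and 84.9), and the change was 0.09 ± 0.07 (adjusted p = 0.38). Panc02.3 was the line in which Parp3 did not rise with IFNg, at 50.2, 53.7 and 56.2 CPM against 57.4, 57.2 and 55.2, a change of -0.09 ± 0.09 (adjusted p = 0.43).

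The comparators Parp1 and Parp2, both sensors of DNA breaks, moved little and mostly down. Parp1 changed by -0.09 ± 0.02 with IFNb (adjusted p = 0.0014) and -0.21 ± 0.02 with IFNg (adjusted p = 1.7e-11) on the mean. The largest change was in B16.1, where it held 315, 321 and 308 CPM unstimulated, 291, 292 and 256 with IFNb and 148, 137 and 145 with IFNg. The IFNg libraries were all lower than the rest, a fall of 1.14 on the log2 scale (SE 0.06, adjusted p = 1.8e-24). With IFNg it also fell in KPC.2, from 104, 109 and 102 to 72.8, 65.4 and 79.0 CPM. With IFNb Parp1 fell in B16.1, LLC and MC38.7, and in Renca it rose by 0.21 ± 0.07 (adjusted p = 0.025). Neither the fall in B16.1 nor the rise in Renca held without some single libraries, with changes down to -0.11 (adjusted p = 0.21, the third IFNb library of B16.1 left out) and 0.14 (adjusted p = 0.35, second unstimulated library of Renca left out). With IFNg Parp1 also rose in Panc02.3 by 0.18 ± 0.07 (adjusted p = 0.017), which did not hold without any 1 of 4 of its libraries (adjusted p from 0.055 to 0.12). Parp2 fell with IFNb in MC38.7, from 37.5, 35.4 and 39.3 to 28.0, 29.1 and 27.7 CPM (-0.40 ± 0.07, adjusted p = 3.8e-06), and with IFNg in B16.1, from 25.9, 24.8 and 27.1 to 19.7, 20.8 and 20.3 CPM (-0.35 ± 0.08). These falls stood beside many others: with IFNb 14.3% of all genes fell in B16.1, 21.0% in LLC and 16.8% in MC38.7, and with IFNg 26.5% fell in B16.1 and 15.8% in KPC.2. On the mean with IFNb Parp2 changed by -0.09 ± 0.03 (adjusted p = 0.012), which did not pass without the filter on low counts (adjusted p = 0.22), and with IFNg it changed by -0.05 ± 0.03 (adjusted p = 0.13).

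Set against each other, IFNg gave higher levels than IFNb for most of the set in 6 lines and lower levels in LLC and MC38.7. As a mean over lines, 6 of the 10 were higher with IFNg, where 18.0% of all genes were, and Parp1 was lower, where 18.7% were. The mean differences were 0.52 ± 0.02 for Parp9, 0.64 ± 0.03 for Dtx3l, 0.89 ± 0.03 for Parp14, 0.41 ± 0.02 for Parp10, 0.89 ± 0.04 for Parp11 and 0.75 ± 0.03 for Parp3 (log2, SE). Zc3hav1 differed by 0.06 ± 0.03 (adjusted p = 0.060), but by -0.13 ± 0.03 without Panc02.3 (adjusted p = 6.1e-05), and Parp12 by 0.12 ± 0.03 over the 7 lines other than Panc02.3 (adjusted p = 4.8e-04). By line, the count higher with IFNg was 8 in B16.1 (26.0% of all genes were higher there), 7 in CT26.2 (2.51%), 6 in KPC.2 (10.9%), 6 in Panc02.3 (22.6%), 7 in Renca (5.25%) and 8 in YUMMER1.7 (9.09%). In LLC 7 of the 10 were lower with IFNg, where 12.5% of all genes were, and in MC38.7 also 7, where 10.5% were. These 7 were the same in both lines: Parp9, Dtx3l, Parp14, Parp10, Parp11, Parp12 and Zc3hav1.

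The sizes in LLC were -0.83 ± 0.07 for Parp9, -1.29 ± 0.09 for Dtx3l, -1.59 ± 0.09 for Parp14, -1.23 ± 0.07 for Parp10, -1.82 ± 0.09 for Parp11, -1.88 ± 0.08 for Parp12 and -0.74 ± 0.08 for Zc3hav1. In MC38.7 they lay between -1.35 ± 0.08 for Parp14 and -0.43 ± 0.07 for Zc3hav1. Parp3 and Parp1 went against these 7 in both lines, with Parp3 higher with IFNg by 0.37 ± 0.07 in LLC and 0.45 ± 0.07 in MC38.7. LLC with IFNg held only 2 libraries. The greatest differences in favour of IFNg were 4.04 ± 0.17 for Parp11 in Renca, 2.55 ± 0.10 for Parp14 in Panc02.3 and 2.40 ± 0.08 for Parp14 in B16.1. Zc3hav1 was split, higher with IFNg in 3 lines and lower in 3.

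**Figure D4:**
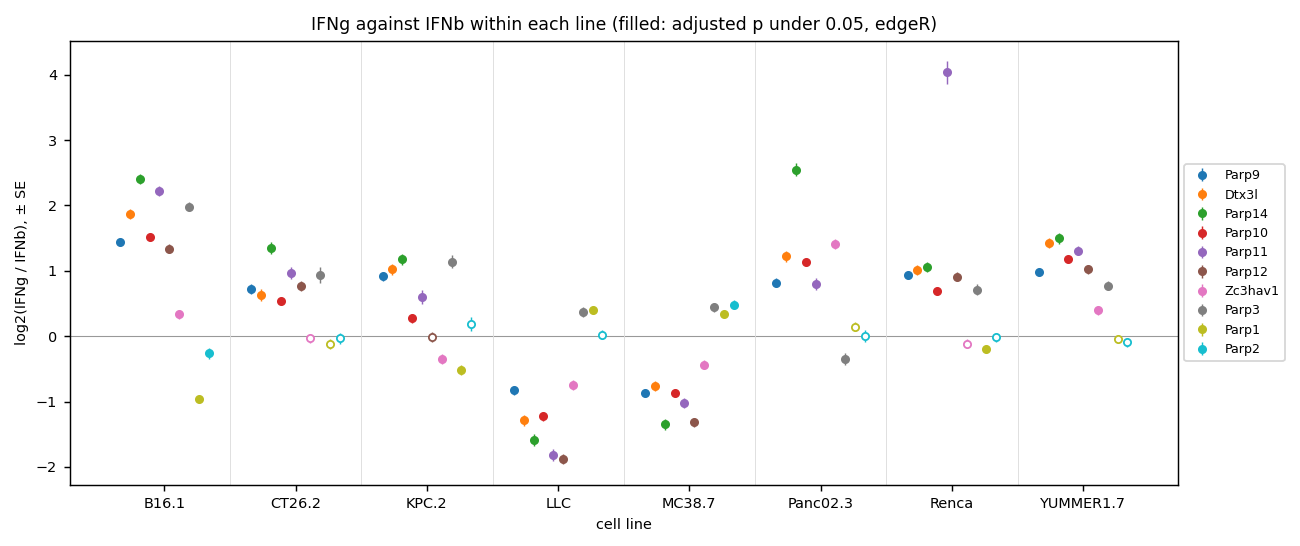
log2 difference between IFNg and IFNb within each line (horizontal axis) for the 10 genes, in colour, with standard errors; filled points passed the test (adjusted p under 0.05). Most points lie above 0 in 6 lines and below 0 in LLC and MC38.7, with Parp3 above 0 in both of those.

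The differences between lines were tested themselves. All 10 genes differed between the lines in their change with IFNb (7 df F test), as did 48.2% of all genes, in their change with IFNg, as did 69.2%, and in the difference between the cytokines, as did 70.1%. The adjusted p was at most 0.0070 over these 30 tests, with Parp2 at that end. With IFNb the change in YUMMER1.7 lay below the mean of the other 7 lines for the 8 genes other than Parp1 and Parp2, where 3.77% of all genes did. The departure was -4.33 for Parp14, -2.81 for Parp12, -2.56 for Parp9, -2.55 for Dtx3l, -2.35 for Parp11, -2.17 for Parp10, -0.79 for Zc3hav1 and -0.71 for Parp3. The Parp12 departure (SE 0.56) and the Parp12 F tests kept Panc02.3, where its fitted change with IFNb rested on 1 count. Among the 7 lines other than Panc02.3, the Parp12 change with IFNb was smallest in YUMMER1.7 (-0.13). In LLC with IFNb, Parp14 rose by 3.44, Parp9 by 2.53, Dtx3l by 2.74, Parp10 by 2.18 and Parp11 by 2.43 more than the mean of the others. B16.1 departed upwards with IFNg, by 4.95 for Parp14, 3.32 for Parp9, 2.88 for Dtx3l, 2.77 for Parp10 and 2.67 for Parp3. In Panc02.3 with IFNg the departure was 1.41 for Zc3hav1 and -1.45 for Parp3.

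For 6 of the set, lines with a high unstimulated level had the smaller rises with IFNb, or none. Across the 8 lines, the unstimulated log2 level and the change with IFNb had r = -0.95 and rho = -0.95 for Parp9 (r = -0.97 without the 2 lines farthest from the median level), r = -0.94 and rho = -0.93 for Dtx3l (-0.95), r = -0.91 and rho = -0.81 for Parp14 (-0.77) and r = -0.94 and rho = -0.90 for Parp10 (-0.88). Over 7 lines, they were r = -0.94 and rho = -0.89 for Parp11, leaving out Renca (-0.75), and r = -0.88 and rho = -0.86 for Parp12, leaving out Panc02.3 (-0.79). For Parp1 r was -0.86 and rho -0.52 (-0.84), for Zc3hav1 r was -0.65 (-0.16) and for Parp2 -0.06. The lines with the highest unstimulated Parp1, MC38.7 (331 CPM), B16.1 (315) and LLC (291), were those in which it fell with IFNb. Its negative r thus goes with falls in those lines, not with smaller rises. The unstimulated libraries enter both values, which by itself pulls such a correlation below 0, so it is given as a description. With IFNg r was -0.85 for Parp9 (-0.83 without those 2 lines), -0.86 for Parp14 (-0.71), -0.86 for Parp10 (-0.76) and -0.76 for Dtx3l (-0.53). Over 7 lines it was -0.69 for Parp12 (-0.39) and -0.35 for Parp11 (-0.10). For Zc3hav1 it was -0.58 (-0.39), for Parp1 -0.36 (0.25) and for Parp2 -0.02. For Parp3, r was -0.26 with IFNb and -0.36 with IFNg. In levels, the lines were closer together after cytokine: Parp9 spanned 14.9-fold unstimulated, 3.0-fold with IFNb and 4.70-fold with IFNg, and Parp14 spanned 79.6-, 15.6- and 15.2-fold. Parp3 spanned 9.94-, 7.51- and 9.06-fold and Parp1 3.15-, 2.75- and 4.33-fold.

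**Figure D5:**
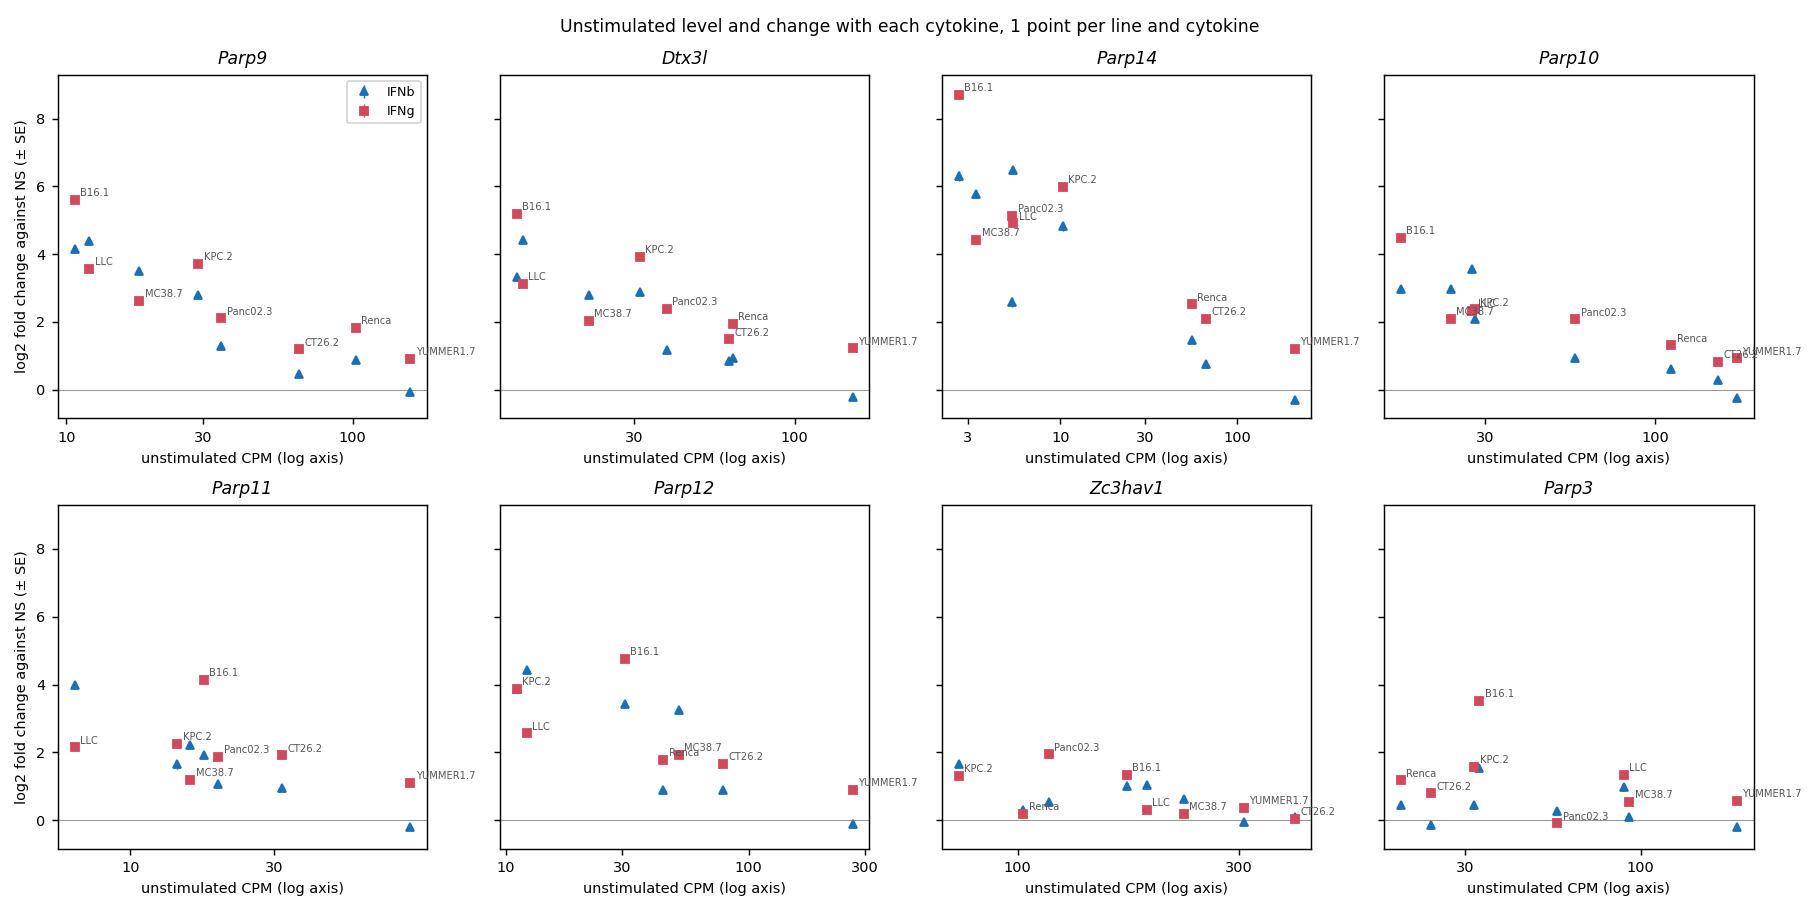
Change with IFNb (triangles) and IFNg (squares) against the unstimulated level (CPM, log axis) for 8 genes, 1 point per line, with standard errors mostly smaller than the symbols; Parp12 in Panc02.3 and Parp11 in Renca, at or near 0 counts, are left out. For Parp9, Dtx3l, Parp14 and Parp10 the points fall from upper left to lower right, with YUMMER1.7 at the right end, and for Parp3 they do not.

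Levels can be compared between genes only per length of transcript. Per kilobase of the annotated transcript, the median over lines was highest for Zc3hav1 (36.6 CPM per kb) and Parp1 (31.2) without cytokine, and that of Parp9 was 8.98, of Dtx3l 6.57 and of Parp11 4.45. With IFNg the order was led by Parp10 (76.6), Zc3hav1 (66.0), Parp9 (63.2) and Parp12 (55.2), while Parp1 stood at 32.0 and Parp2 at 18.2. One transcript per gene was used for the length, so these values are approximate.

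Over the 24 groups, the genes of any kind with a pattern of mean log2 CPM most like that of Parp9, leaving out the set itself, were Tgtp1 (r = 0.94), Gbp3 (r = 0.93), Zbp1 (r = 0.93), Irgm2 (r = 0.93) and Irgm1 (r = 0.92), all known interferon-induced genes. Within the set Parp9 was closest to Dtx3l (r = 0.97) and Parp14 (r = 0.97). For Dtx3l and Parp14 the closest of all 16147 genes was Parp9. For Parp10 it was Ifi35 (r = 0.97), for Parp12 Rbm43 (r = 0.93), for Parp11 Zfp619 (r = 0.88) and for Zc3hav1 also Zfp619 (r = 0.84). For Parp1 it was Mcm6 (r = 0.95), a subunit of the replicative helicase, for Parp3 Bag3 (r = 0.86) and for Parp2 Vgf (r = 0.91). These correlations share the lines, libraries and scaling and are given with no test. Those of Parp12 include Panc02.3, where it had 0 or 1 counts, and those of Parp11 include Renca, its lowest line in each treatment. A high r for these genes may rest on that line, which was not tested.

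The other genes of the ADP-ribose system were taken by list, and each count of rises and falls on the mean is to be read against all genes tested, of which 13.0% rose and 17.3% fell with IFNb and 18.3% rose and 23.7% fell with IFNg, with medians of -0.02 and -0.04. Of 7 other PARP genes (Parp4, Parp6, Parp8, Parp16, Tnks, Tnks2 and Tiparp), 3 rose and 1 fell with IFNb and 2 rose and 3 fell with IFNg on the mean, with list medians of 0.06 and 0.04. The largest change among these was Parp8 with IFNg, 0.63 ± 0.03. Of the 6 tested genes that remove ADP-ribose (Parg, Adprh, Adprhl2, Oard1, Macrod1 and Macrod2), 0 rose and 4 fell with IFNb and 2 fell with IFNg, with medians of -0.16 and -0.07. None of these falls reached 2-fold on the mean. Of the 4 readers of the mark (Rnf146, Chfr, Aplf and Xrcc1), 1 fell with IFNb, and 1 rose and 2 fell with IFNg, with medians of 0.00 and -0.09; the counts of 1 of 4 are close to the shares over all genes. Of the other 4 deltex ligases, Dtx4 rose with IFNg by 1.26 ± 0.29 (adjusted p = 3.0e-04), in 5 lines, and Dtx3 fell with IFNb by 0.25, with list medians of -0.04 and -0.05. In the list for NAD, the donor of ADP-ribose, 1 of 12 tested genes rose and 2 fell with IFNb, and 2 rose and 1 fell with IFNg, with medians of -0.08 and -0.12. These shares were near or below those over all genes. Nampt, the rate-limiting enzyme of NAD salvage, rose by 0.34 ± 0.03 and 0.70 ± 0.03. Nnmt, which methylates nicotinamide and so takes it out of salvage, rose with IFNg by 0.76 ± 0.05, in 5 lines. Both stayed under 2-fold on the mean, but their largest change in a line with IFNg was 1.54 for Nampt and 1.97 for Nnmt (log2). Cd38, which consumes NAD, fell with IFNg by 1.35 (SE 0.45, adjusted p = 0.016), in 2 lines.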

How the data were processed

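RNA from 70 libraries was sequenced after preparation with a strand-marking kit, per the labels' protocols. Trimmomatic 0.36, kallisto and the mm10 build are named in the submitters' processing notes; the kallisto version and strand setting are not given in the sources used here. The deposited table holds the authors' estimated counts per gene, which were rounded to whole numbers. Each of its columns matched 1 sample by name.

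Genes were filtered with filterByExpr and libraries scaled by TMM in edgeR 4.0.16 (R 4.3.3). A quasi-likelihood fit over all 24 groups of line and treatment gave each contrast, with Benjamini-Hochberg adjustment over the 16147 genes tested. Adjusted p-values in the text come from this edgeR fit unless another tool or a changed setting is named. Where a library or the filter on low counts is said to be left out, they come from edgeR refitted that way. The fits without a library kept the negative binomial dispersion estimated from all 70 libraries. A gene was called at an adjusted p under 0.05. Contrasts were taken within each line, as the mean of the 8 lines, as a line against the mean of the other 7, and as F tests between lines. The code was tested on simulated data. Library totals were 668355 to 28550816, so the shallowest libraries limit low genes. Replicates were compared in 68 pairs, and 0 were identical.

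The alternatives were RLE size factors, no filter, limma-voom (limma 3.58.1), DESeq2 1.42.0, each line alone, a replicate block, and leaving out each library. The means without Panc02.3 or Renca were added after seeing the data. Members and gene lists were chosen with earlier results of these data known. Among other genes of the pathway lists, those of at least 2-fold mean change were to be named; the remaining ones named were chosen after their values were seen. Gene positions are from GENCODE M21. One further check gene is not reported here.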

Additional observations from a re-analysis of the deposited data

Results flagged for a closer look

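The change of all 10 genes differed between the 8 lines in each of the 3 comparisons, by an F test of the difference itself (edgeR, adjusted p at most 0.0070 over 30 tests). The values below are the distance on the log2 scale between the line with the greatest and the line with the smallest change. For these distances Parp12 is taken over the 7 lines other than Panc02.3, while its F tests kept all 8 lines.

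With IFNb the distance was 6.79 for Parp14, 4.63 for Dtx3l, 4.57 for Parp12, 4.46 for Parp9, 4.19 for Parp11 and 3.80 for Parp10, in each case between YUMMER1.7 and LLC. It was 1.73 for Parp3 (YUMMER1.7 to B16.1), 1.7 for Zc3hav1 (YUMMER1.7 to KPC.2), 0.64 for Parp1 (MC38.7 to Renca) and 0.45 for Parp2 (MC38.7 to YUMMER1.7).

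With IFNg the upper end was B16.1 for Parp14 (7.51), Parp9 (4.69), Dtx3l (3.97), Parp12 (3.86), Parp10 (3.66) and Parp3 (3.61). The lower end was YUMMER1.7 for the first 4 of these, CT26.2 for Parp10 and Panc02.3 for Parp3. Parp11 had a distance of 6.17, between YUMMER1.7 and Renca, where it was near 0 counts unstimulated. Zc3hav1 had 1.90 (CT26.2 to Panc02.3), Parp1 1.32 (B16.1 to Panc02.3) and Parp2 0.44 (B16.1 to MC38.7).

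For IFNg against IFNb the lower end was LLC for Parp11 (5.86), Parp14 (4.14), Parp12 (3.21), Dtx3l (3.16), Parp10 (2.75) and Zc3hav1 (2.15), and MC38.7 for Parp9 (2.32). The upper end of these was B16.1, apart from Renca for Parp11 and Panc02.3 for Parp14 and Zc3hav1. Parp3 had 2.33 (Panc02.3 to B16.1), Parp1 1.37 (B16.1 to LLC) and Parp2 0.74 (B16.1 to MC38.7).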

How the results depend on the processing

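Of the counts of called genes recomputed under the alternatives, 1200 stayed within 1.5 times their value, and the 20 others were counts of 1 or 2 genes that fell. Without the filter on low counts, the genes that fell with IFNb on the mean went from 2 to 1 and in B16.1 from 1 to 0, and those lower with IFNg than IFNb in Renca from 1 to 0. In YUMMER1.7 with IFNb, where 2 fell, 1 did with RLE size factors, with no filter, with each line fitted alone and with the replicate block. With each line fitted alone, 1 fell in MC38.7 with IFNg (0 otherwise) and 0 were lower with IFNg than IFNb in Renca. Leaving out 1 library gave 0 to 1 fallen in B16.1 with IFNb, 0 to 2 in YUMMER1.7 with IFNb, 1 to 2 for IFNg against IFNb in B16.1 and 0 to 1 in Renca. Of the recomputed values of the 427 fold changes, 5066 kept their side of the threshold, 62 of them with a change of sign where neither value passed. A further 49 no longer passed, 44 newly passed, and 1 passed with the opposite sign: Parp12 for IFNg against IFNb, from -0.15 (not passed) to 0.12 without Panc02.3. Of the 49, 35 came from leaving out 1 library, 6 from each line fitted alone, 4 from no filter, 3 from the replicate block and 1 from RLE size factors. RLE size factors moved 55 of 240 levels by more than 1 SD of their replicates. Taken over all lines, same-numbered libraries did not deviate together (median r 0.0065, against 0.0079 for other pairs). By line the same-numbered median ran from -0.16 in CT26.2 (other pairs 0.080) to 0.087 in Renca (other pairs -0.019). Whether the numbers pair libraries in some lines cannot be judged from the median over all lines. With the replicate block all 10 genes were called on the mean with IFNb, as without it. F tests and departures were not run in the leave-one-out fits. Where a group of 2 lost 1 library, the lone one is assumed to vary like the other groups. Parp12 in Panc02.3 and unstimulated Parp11 in Renca lay under the limit that 3 counts set over a group. That limit was 0.113-0.268 CPM in Panc02.3 and 0.141 CPM in unstimulated Renca, and levels below it could not be measured.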
